A study of Felis catus with 12 samples.

Results

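The core cardiac transcription factors described here are GATA4, GATA6, NKX2-5, HAND2, TBX5, TBX20, MEF2A, MEF2C, MEF2D and SRF. These 10 genes were chosen by name, and each had its own row among the 30785 genes of the deposited table. Direct RNA sequencing on Oxford Nanopore flow cells, which reads RNA strands themselves and needs no cDNA copy, was performed on post-mortem left ventricular free wall tissue of 12 cats, with 1 library per cat and 4 barcoded libraries on each of 3 flow cells. Flow cell PAK20671 held cats 11, 23, 30 and 31, PAM73681 held cats 10, 15, 35 and 36, and PAM73696 held cats 22, 29, 37 and 38. The study's cohort list records a known cardiac death without ATE (arterial thromboembolism, a clot that lodges in an artery) for cats 11, 15, 30, 31, 35 and 37. These cats are called congestive HF (heart failure) here, although the recorded reason does not name heart failure for each of them. ATE is recorded for cats 10, 23 and 38, and no known cardiac death for cat 36. The record of cat 10 also names heart failure, so these groups do not separate cats with and without heart failure. The outcomes and traits were matched by cat number to the study's cohort list, since the labels give the flow cell but not the outcome. The libraries labelled as cats 22 and 29 carry numbers of that list that are not among the cats the study names as sequenced. The list gives ATE for cat 22 and no known cardiac death for cat 29, but the identity of these libraries is unsettled. They therefore entered the comparisons of flow cells but were left out of those of outcomes and traits. An age, between 2 and 18 years, was known for 9 of the other cats, and a myocardial fibrosis percentage for 8. The 1 cat without known cardiac death whose library could be matched is no group, so no comparison with control hearts was possible.

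These factors form the regulatory core of the heart muscle programme. GATA4, GATA6, NKX2-5, TBX5, TBX20 and HAND2 are required when the heart forms and remain expressed in the adult ventricle, while MEF2 proteins and SRF bind the regulatory regions of genes for contractile proteins. The proteins bind DNA together and with partners, so their activity depends on phosphorylation, on co-repressors such as class IIa histone deacetylases and on co-activators such as myocardin, as well as on the amount of their mRNA. Only mRNA was measured here.

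The shallowest library held 789257 reads on genes and the deepest 2263110. Values below are the deposited ones, which are reads per gene divided by 1 size factor per library, so that 1 read was worth between 0.483 and 1.43. The 10 factors together received between 322 and 824 reads per library, or 277 to 620 RPM (reads per 1000000 reads on genes). Because each gene rests on few reads, counting error is a large part of each value. The tissue label was checked against markers of heart muscle and of atrium. The 6 cardiomyocyte markers that were measured (TNNT2, TNNI3, ACTC1, MYBPC3, RYR2 and CKM) summed to between 33138 and 109495 RPM. These 6 do not separate ventricle from atrium. Of the atrial markers, SLN had 0 to 2 reads and KCNA5 0 to 6, whereas MYL4 had 0 to 65 and MYL7 0 to 783. NPPA, which ventricles also express, had 56 to 4660. The most MYL7 reads were in cat 35, but the most MYL4 and NPPA reads were in cat 31, so these markers did not point to the same library. The library of cat 35 had the lowest GATA4 and SRF and the highest TBX5 and MEF2C values of all. The part of atrial tissue in these values was not tested. In bulk tissue, fewer cells of a type and less RNA per cell cannot be told apart.

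Expression was detected in all 12 libraries for every factor except TBX20. The GATA factors are zinc finger proteins that bind the GATA motif. GATA4 had 17 to 81 reads, and its value was 32.5 ± 10.8 (SD, n = 12), with a range from 14.97 in cat 35 to 55.8 in cat 15. GATA6 had 36 to 138 reads, with a value of 85.9 ± 22.8 and a range from 48.6 in cat 22 to 115 in cat 30.
NKX2-5, a homeodomain protein that partners with GATA4, was at 88.9 ± 23.1, between 48.3 in cat 11 and 128 in cat 15. HAND2, a basic helix-loop-helix protein of ventricle development, was at 90.3 ± 24.3, between 48.3 in cat 11 and 141 in cat 30. In deposited values, the library of cat 11, the deepest of all, was thus the lowest for both genes. As RPM, NKX2-5 was slightly lower in cat 29 (43.2) than in cat 11 (44.2).
TBX5, the T-box protein altered in Holt-Oram syndrome, had 5 to 35 reads and a value of 15.9 ± 6.44. TBX20, another T-box factor, had 0 reads in 5 libraries (cats 11, 23, 31, 36 and 38) and at most 8, in cat 15. A count of 0 allows up to 3 reads, which corresponds to 1.33 to 3.80 RPM depending on the library, so absence of TBX20 mRNA was not shown. TBX20 did not reach 10 reads in any library and was the 1 factor left out of the tests across genes.
Of the MEF2 genes, MEF2A was at 72.0 ± 14.9, between 48.5 in cat 38 and 98.5 in cat 11, and MEF2C at 56.6 ± 15.2, between 41.0 in cat 29 and 92.2 in cat 35. MEF2D had 4 to 36 reads and varied most of the 9 tested factors, at 14.98 ± 8.27, from 5.373 in cat 23 to 30.04 in cat 37. SRF, the serum response factor, was at 20.9 ± 4.90, between 11.0 in cat 35 and 27.6 in cat 36. Since transcript lengths were not available, levels of different genes were not ranked.

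**Figure D1:**
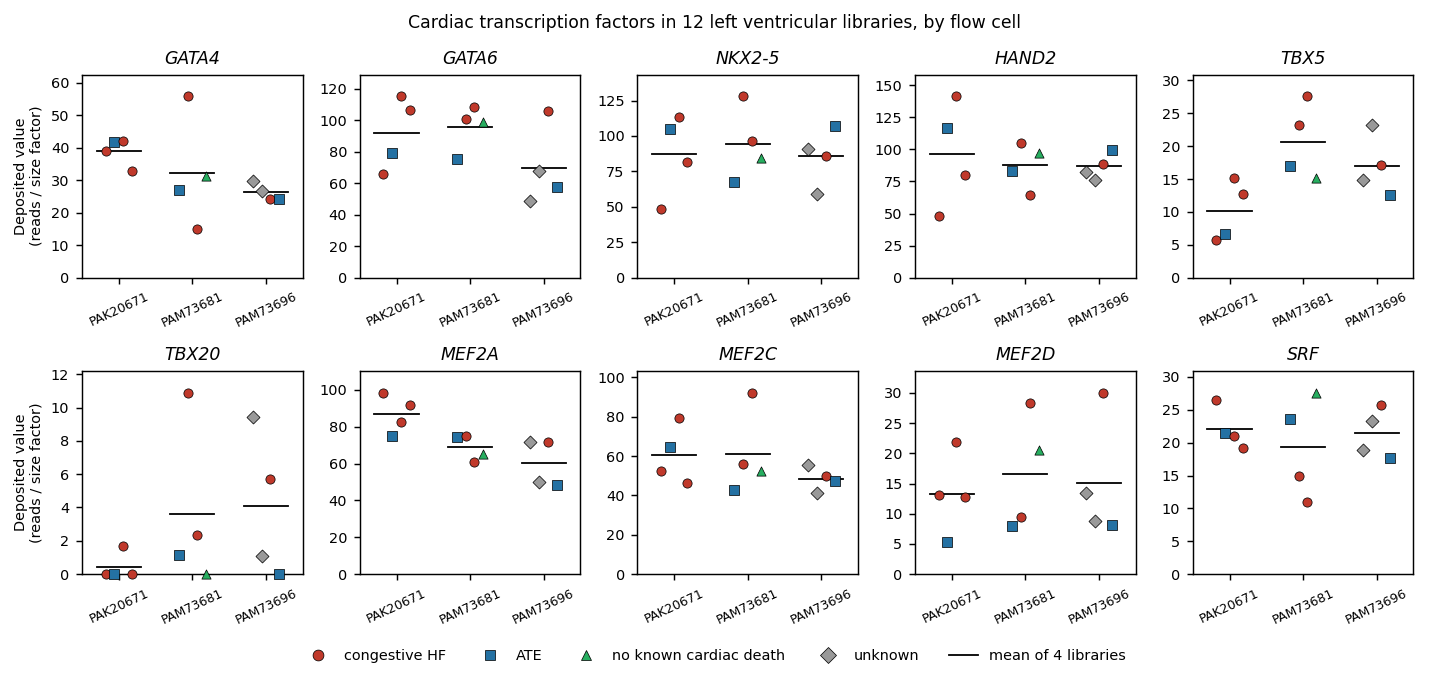
Deposited value (reads divided by the size factor, linear axis from 0) of each factor in each of 12 libraries, grouped by flow cell, with symbols for the outcome of the cat and a line at the mean of 4 libraries. TBX20 lies at 0 in 5 libraries, the libraries marked ATE lie below all congestive HF libraries for MEF2D, and TBX5 is at 5.79 to 15.2 on PAK20671 against 12.5 to 27.6 on the others.

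The spread between cats was compared with the spread that counting reads alone would give. The coefficient of variation over 12 libraries was between 20.7% (MEF2A) and 55.2% (MEF2D), with a median of 26.9% over the 9 tested factors, against a median of 40.0% over all 8715 tested genes. The factors also had more reads than the typical gene (a median of 61.8 against 30.2), and the corresponding counting errors had medians of 13.4% and 19.2%. For SRF, the observed 23.4% was close to the 22.1% expected from counting, so differences between cats were barely detectable at this depth. For HAND2, GATA6 and NKX2-5, the observed 26.9%, 26.5% and 26.02% were well above the 10.6%, 10.9% and 10.7% from counting. MEF2D had 55.2% against 26.1%. These are descriptions without a test, because each cat gave 1 library and differences between cats include handling of the tissue.

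**Figure D2:**
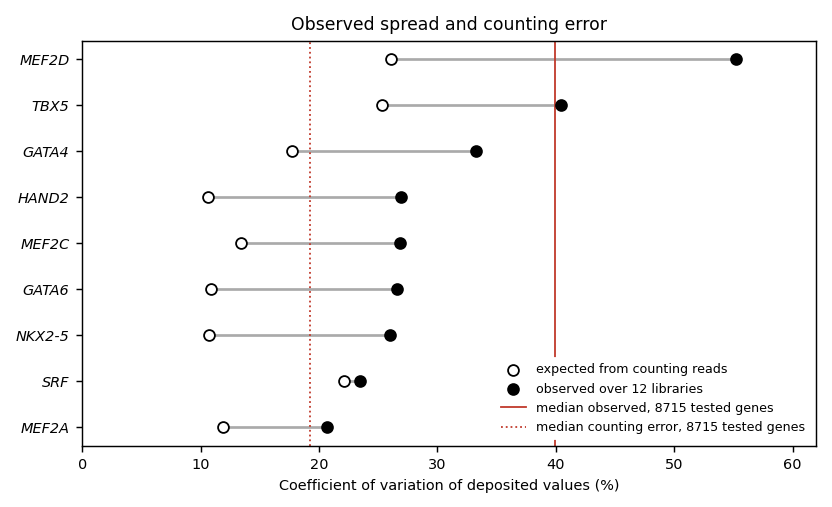
Coefficient of variation (percent) of deposited values over 12 libraries for the 9 tested factors (filled points) and the value expected from counting reads (open points); the lines mark the medians over 8715 tested genes. SRF lies nearly at its counting error, and MEF2D and TBX5 have the widest observed spread.

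Within families, reads of the paired genes were divided by each other in each library. Their ratio depends on transcript length and only its variation is read here. The log2 ratio of MEF2A to MEF2C had an SD of 0.43 over 12 libraries, and the ratio ran from 0.658 to 1.98. The ratio of MEF2A to MEF2D varied more, from 2.14 to 14 (SD of log2 0.81), and that of GATA6 to GATA4 ran from 1.64 to 7.26 (SD 0.62). In the 7 libraries with reads of TBX20, the ratio of TBX5 to TBX20 ran from 1.57 to 21. Among the 36 pairs of tested factors, Pearson's r of log2(value + 1) was positive in 24 pairs, with a median of 0.12. With the mean of each flow cell subtracted, 20 pairs were positive and the median was 0.20. The pair with the highest r was NKX2-5 and HAND2, at 0.77, and at 0.79 within flow cells. These correlations over 12 libraries share depth and tissue handling and carry no p.
The genes most like a factor were sought among 4584 genes with at least 10 reads in all 12 libraries, after centring on flow cells. TBX5, TBX20 and MEF2D did not reach this minimum and were left out. GATA4 was most like BRI3 (r = 0.93), GATA6 like MTURN (0.91), NKX2-5 like ZNF32 (0.88) and MEF2A like PLEKHA1 (0.89). MEF2C was most like CPNE3 (0.89), HAND2 like an uncharacterised locus named LOC102901005 (0.94) and then ASB11 (0.94), and SRF like CDC73 (0.93). With so many genes and 12 libraries, values of this size are a description of likeness only.

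Flow cells were compared because they are the only grouping that the labels give. Each held different cats with a different mix of outcomes, so flow cell, cat and outcome cannot be told apart in these differences. No factor passed the test between PAK20671 and the other flow cells, and the differences of TBX5, MEF2A and GATA4 were the largest in size among the 9 tested. The limma test on log2(value + 1) called 446 of 8715 genes at an adjusted p under 0.05, which is 5.12%, and 0 of the 9 tested factors. At an unadjusted p under 0.05, it called 21.4% of all genes, and TBX5 and MEF2A of the 9 factors, a share near that background.
TBX5 values on PAK20671 were 5.79, 6.72, 12.8 and 15.2, and the others ran from 12.5 to 27.6, with 17.0 as the median. Cats 11 and 23 were below every library of the other flow cells, and the groups overlapped. The log2 difference was -0.89 (SE 0.32, 0.540-fold with a 95% interval of 0.339 to 0.860), with an adjusted p of 0.114 by limma and a two-sided exact permutation p of 0.0141 over 495 splits, where the smallest possible is 0.0020.
MEF2A values on PAK20671 were 75.2, 82.5, 91.7 and 98.5, and those of the other flow cells ran from 48.5 to 74.9. These groups did not overlap, as was the case for 4.23% of all tested genes, but the gap of 0.331 was less than the value of a single read in either library at the edge. The log2 difference was 0.43 (SE 0.20, 1.35-fold with an interval of 1.02 to 1.80), with an adjusted p of 0.207 by limma and an exact permutation p of 0.0101.
GATA4 was at 38.9 ± 4.33 on PAK20671 (n = 4) and 29.2 ± 11.8 on the others (n = 8), a log2 difference of 0.47 (SE 0.28; adjusted p = 0.341 by limma). The other 6 tested factors differed by between -0.20 and 0.16 on the log2 scale, with adjusted p-values of 0.737 or more by limma. TBX20 had 2 reads over the 4 libraries of PAK20671 and 24 reads over the 8 others.
Of the summed cell type markers, only those of smooth muscle did not overlap between these flow cells. On PAK20671, summed RPM of 4 smooth muscle markers were 360 to 1023 against 66.7 to 235, of 6 fibroblast markers 647 to 2521 against 191 to 1262, and of 6 cardiomyocyte markers 33138 to 58921 against 46546 to 109495. The 4 endothelial markers summed to 343 to 699 against 205 to 869. At an adjusted p under 0.05 by limma, 3 of 6 cardiomyocyte markers were lower and 0 higher. Their log2 difference was below 0 for 5 and above 0 for 1. Higher were 1 of 6 fibroblast markers and 2 of 3 tested smooth muscle markers, where 5.12% of all tested genes were called. The part of these markers in the values of TBX5 and MEF2A was not tested. Between PAM73681 and PAM73696, limma called 3 genes (0.0344%) and 0 of the 9 factors, whose log2 differences ran from -0.21 (SRF) to 0.50 (GATA6).

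The genes around the factors were read from lists. Apart from the cell type markers, contractile, calcium and stress genes known as targets of these factors were the 1 list in which genes passed the test between PAK20671 and the others. Of 19 measured targets, 6 were lower on PAK20671 and 0 higher at an adjusted p under 0.05 by limma, against 5.12% of all tested genes called in either direction. The log2 difference was below 0 for 14 targets and above 0 for 5, with a median of -0.51 against 0.15 for the 9 factors and 0.03 for all tested genes. The cardiac troponins TNNT2 (log2 difference -1.05, SE 0.20; adjusted p = 0.00874) and TNNI3 (-1.64, SE 0.34; adjusted p = 0.0145), the ventricular light chain MYL3 (-1.11, SE 0.23; adjusted p = 0.0146) and the oxygen-binding myoglobin MB (-1.09, SE 0.24; adjusted p = 0.0159) had the smallest adjusted p-values by limma. TNNT2 ran from 2763 to 3746 on PAK20671 and from 5516 to 11001 on the others, without overlap. TNNT2 and TNNI3 also stand among the cardiomyocyte markers, of which 3 of 6 were lower at this threshold. The other of these was MYBPC3, which is not in the list of targets (log2 difference -1.82, SE 0.27, adjusted p = 0.00233 by limma). Of all tested genes, 305 were lower and 141 higher on PAK20671 at this threshold, so lower values were not particular to the targets. The natriuretic peptide genes NPPB and NPPA, named after their values were seen, had log2 differences above 0 that did not pass (1.57, SE 0.58, adjusted p = 0.123, and 1.38, SE 0.84, adjusted p = 0.355, by limma). The count of 6 lower targets fell to 0 without cat 11 and to 2 without cat 31 (limma), with the median at -0.33 and -0.49. It was also 0 on reads that were not divided by a size factor, and 2 when all genes with a read were tested.
None of 8 tested genes among the other cardiac transcription factors passed (median -0.26). In this list IRX4, a ventricular homeodomain factor, had the smallest adjusted p (log2 difference -1.01, SE 0.36; adjusted p = 0.110 by limma). None of 14 tested partners and regulators passed (median 0.07). HDAC5, a class IIa deacetylase that represses MEF2, was at 30.5 ± 18.1 on PAK20671 and 55.5 ± 20.0 on the others (adjusted p = 0.136 by limma). The 5 tested immediate early genes of the serum response, among them FOS and EGR1, had log2 differences from 0.39 to 0.76 (median 0.62), and none passed. ISL1, NFATC2 and FOSB had 0 reads in all 12 libraries, which allows up to 3 reads in each.

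**Figure D3:**
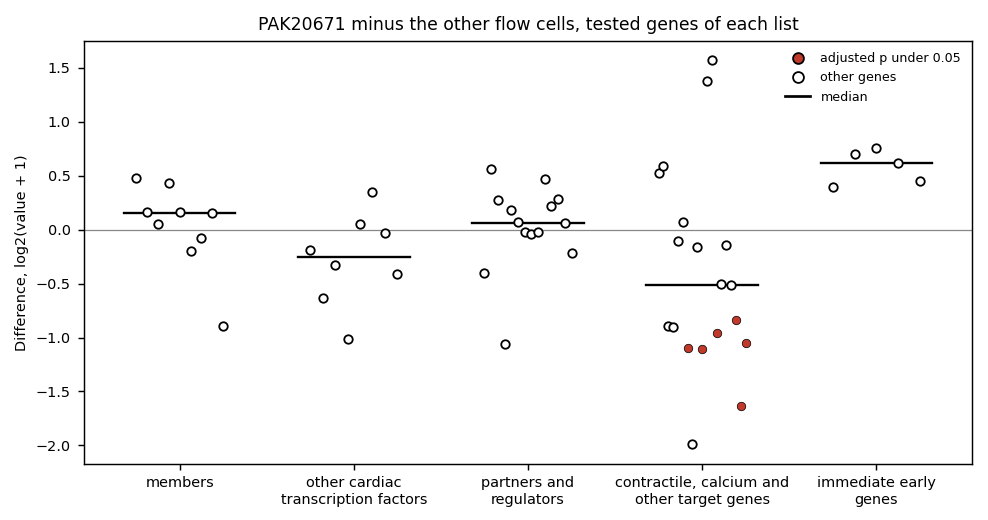
Difference in log2(value + 1) between flow cell PAK20671 (4 libraries) and the others (8 libraries) for each tested gene of 5 lists, with a line at the median of the list and filled points for an adjusted p under 0.05 by limma. The 9 factors have a median of 0.15, and the 6 filled points are all contractile, calcium or myoglobin genes below 0.

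Congestive HF was compared with ATE in 9 cats, to see whether the factors differ between these outcomes. Among these 9 cats, MEF2D was higher in all 6 libraries of cats with congestive HF than in any library of a cat with ATE. GATA6 was higher in 5 of 6. limma called 0 of 8715 genes (0%) and 0 of the 9 factors at an adjusted p under 0.05. At an unadjusted p under 0.05 it called 384 genes (4.41%), MEF2D among them.
MEF2D, whose product binds the same A/T-rich element as MEF2A and MEF2C, was at 9.53, 12.8, 13.0, 21.9, 28.4 and 30.04 in congestive HF and at 5.373, 7.89 and 8.09 in ATE. The cat without known cardiac death had 20.5, above all 3 cats with ATE. The groups did not overlap, which was the case for 2.18% of all tested genes, although the lowest congestive HF value (cat 15) rested on 7 reads and the ATE values on 4, 7 and 11. The libraries labelled as cat 22 (ATE in the cohort list) and cat 29 (no known cardiac death), left out here, were at 13.5 and 8.87. Entered as ATE, the library labelled as cat 22 would lie above 9.53, 12.8 and 13.0 in congestive HF, so the groups would overlap. The log2 difference was 1.22 (SE 0.43, 2.33-fold with a 95% interval of 1.23 to 4.42), with an adjusted p of 0.960 by limma and a two-sided exact permutation p of 0.0238 over 84 splits, where 0.0119 is the smallest possible. Within flow cells, congestive HF minus ATE was 1.36 on PAK20671 (3 cats against 1), 0.98 on PAM73681 (2 against 1) and 1.77 on PAM73696 (1 against 1).
GATA6 was at 65.6, 101, 106, 107, 109 and 115 in congestive HF and at 57.4, 75.5 and 79.2 in ATE. Cat 11 was the only congestive HF library below an ATE library. The log2 difference was 0.49 (SE 0.26, 1.41-fold with an interval of 0.952 to 2.08), with an adjusted p of 0.960 by limma and an exact permutation p of 0.0357. Within flow cells it was 0.23 on PAK20671, 0.47 on PAM73681 and 0.87 on PAM73696.
For the other 7 tested factors, the log2 difference ran from -0.25 (HAND2) to 0.41 (TBX5), with adjusted p-values of 0.970 or more by limma. The intervals were wide, so that for TBX5 both 0.656-fold and 2.68-fold lay inside, and for NKX2-5 both 0.6002-fold and 1.56-fold. Cardiomyocyte markers summed to 33138 to 102137 RPM in congestive HF and to 47079 to 79943 in ATE, and smooth muscle markers to 66.7 to 1023 and 93.2 to 419. Fibroblast markers summed to 191 to 1141 RPM in congestive HF, with a median of 616, and to 476 to 2521 in ATE, with a median of 1033. These ranges overlapped, and their part in the values of MEF2D and GATA6 was not tested.
Of the targets, 16 of 19 were lower and 3 higher in congestive HF (median log2 difference -0.22 against -0.00 for all tested genes), and 0 passed the test by limma. Of all tested genes, 49.8% were higher. All 6 cardiomyocyte markers were lower too (median -0.28), but each of them except MYBPC3 is also a target. MYBPC3 differed by -0.24 (SE 0.61), so whether this direction was particular to the targets cannot be told from the markers.

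**Figure D4:**
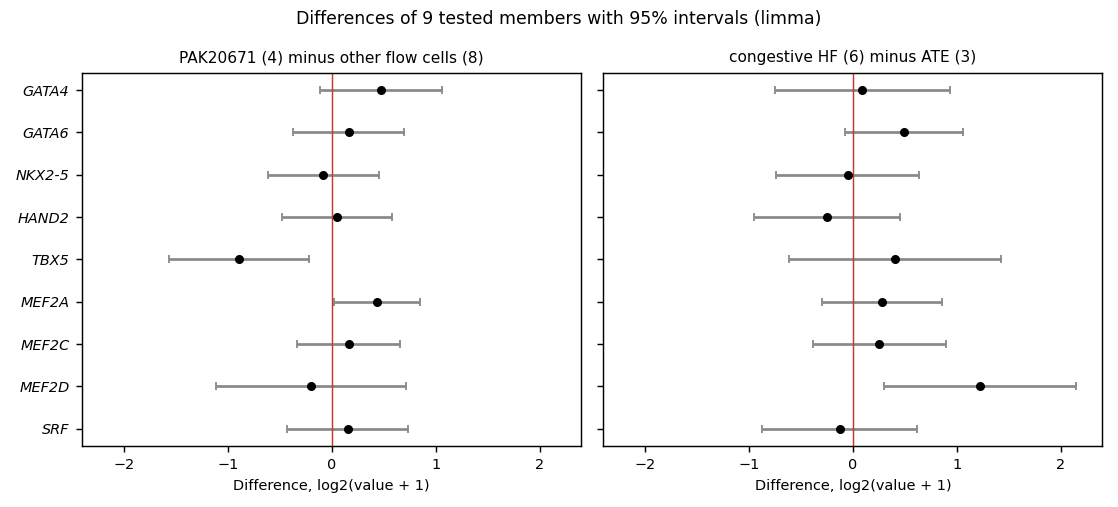
Difference in log2(value + 1) with its 95% interval from limma for the 9 tested factors, between flow cell PAK20671 and the others (left) and between congestive HF and ATE (right). The intervals of TBX5 and MEF2A on the left and of MEF2D on the right do not include 0, before any adjustment over the 8715 genes.

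Expression was then compared with myocardial fibrosis in 8 cats and with age in 9, with Spearman's rho and exact two-sided permutation of the trait, for 10 factors and 2 traits and thus 20 relations. No gene of 8715 passed the adjustment for either trait, and 0 of the 9 factors did. With so few cats, the exact test also found 0% of the changed genes in simulated data, so this absence of calls shows nothing about the factors. At an unadjusted exact p under 0.05, 247 genes (2.83%) were related to fibrosis and 415 (4.76%) to age.
Of the 9 tested factors, MEF2D had the lowest rho with fibrosis and the only unadjusted p under 0.05. In order of rising fibrosis, the 8 values were 28.4, 21.9, 8.09, 20.5, 7.89, 13.0, 9.53 and 5.373. The rho was -0.738 (exact permutation p = 0.0458, adjusted p = 1) and Pearson's r was -0.750 (exact permutation p = 0.0362). Leaving out the cats at greatest distance from the median fibrosis, 23 and 15, gave an r of -0.768. Among 7 cats, centred by flow cell, r reached -0.884 (p = 0.0278 by exact permutation inside flow cells). These cats are largely the ones compared by outcome, so both results for MEF2D rest on the same libraries. Summed cardiomyocyte markers had a rho of 0.048 with fibrosis (exact permutation p = 0.935) and reads on genes a rho of -0.429 (exact permutation p = 0.299). Their part in the relation was not tested. For the other 8 tested factors rho with fibrosis ran from -0.429 (TBX5) to 0.571 (GATA4).
NKX2-5 and HAND2 had the highest rho with age of the 9 tested factors, and neither passed the adjustment. In order of age (2, 3, 4, 5, 8, 10, 13, 14 and 18 years), NKX2-5 was at 84.6, 81.4, 48.3, 107, 67.6, 85.8, 105, 128 and 114. Its rho with age was 0.700 (exact permutation p = 0.0433, adjusted p = 0.897) and r was 0.649 (exact permutation p = 0.0597). The relation rested in part on the oldest cats, with an r of 0.357 when cats 30 and 15 were left out. Leaving out cats 30 and 36 instead, since cat 36 is as far from the median as cat 15, gave 0.645. Centred by flow cell, r came to 0.697 (p = 0.115 by exact permutation inside flow cells).
HAND2, in the same order of age, was at 97.1, 79.8, 48.3, 99.3, 83.4, 88.7, 117, 105 and 141. Its rho was 0.717 (exact permutation p = 0.0369, adjusted p = 0.897) and r was 0.743 (exact permutation p = 0.0174). Leaving out cats 30 and 15 gave an r of 0.493, and leaving out cats 30 and 36 gave 0.713. Centred by flow cell, r came to 0.747 (p = 0.0972 by exact permutation inside flow cells).
MEF2C had the highest Pearson's r with age, with a lower rho. In the same order of age it was at 52.5, 46.3, 52.6, 47.1, 42.8, 50.1, 64.5, 55.8 and 79.1, highest in the oldest cat. Its r was 0.761 (exact permutation p = 0.0112) and its rho 0.60 (exact permutation p = 0.0968, adjusted p = 0.918). Leaving out cats 30 and 15 gave an r of 0.495, and leaving out cats 30 and 36 gave 0.651. Centred by flow cell, r came to 0.803 (p = 0.0590 by exact permutation inside flow cells).
TBX20 had 8 reads in the cat of 14 years, 4 in that of 10 years, 2 in that of 18 years, 1 in that of 8 years and 0 in the other 5 cats of known age. Its rho was 0.712 (exact permutation p = 0.0397), on counts at or near the floor and outside the genes tested, and r was 0.493.
Depth and marker sums were compared with age by the same test, and none passed the adjustment. Reads per library had a rho of -0.700 with age (exact permutation p = 0.0433, adjusted p = 0.346 over 16 relations of depth and marker sums with traits). The 4 endothelial markers, as summed RPM, had a rho of 0.867 (exact permutation p = 0.00451, adjusted p = 0.0721). Their part in the relations of NKX2-5, HAND2 and MEF2C was not tested. On reads that were not divided by a size factor, rho with age was -0.176 for NKX2-5, -0.159 for HAND2 and -0.233 for MEF2C, against a median of -0.350 over all tested genes, so their direction depends on the scaling. Besides NKX2-5 and HAND2, rho with age ran from -0.450 (SRF) to 0.60 (MEF2C) among the tested factors.

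**Figure D5:**
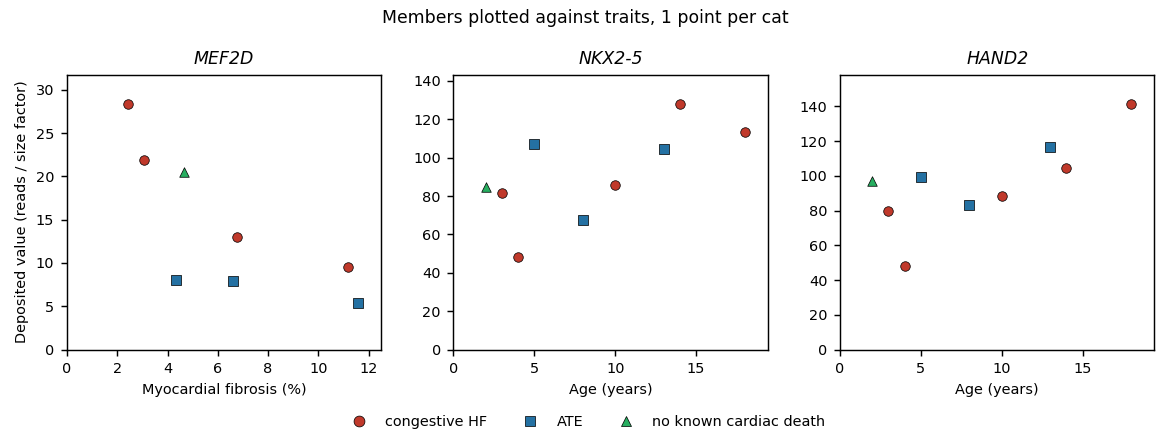
Deposited value (reads divided by the size factor) of MEF2D against the myocardial fibrosis percentage in 8 cats, and of NKX2-5 and HAND2 against age in years in 9 cats, with symbols for the outcome. MEF2D is lowest (5.373) in the cat with the most fibrosis, and HAND2 is highest (141) in the oldest cat.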

How the data were processed

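RNA of left ventricular free wall was sequenced, after selection of mRNA, with the direct RNA kit of Oxford Nanopore. The authors used Guppy for base calling, a Phred filter, Minimap2 for alignment to felCat9 and FeatureCounts for counting. Each deposited signal value is a number of reads divided by a median-of-ratios size factor: in every library 100% of the values equalled a whole number of reads (within a relative 1e-06), and recomputed factors differed by a relative 2.89e-15 at most. Whether strand was used in counting is not given in the sources used here.

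A gene was tested if 3 or more of the 10 libraries with an outcome held 10 or more of its reads, which left 8715 of 30785. limma 3.58.1 in R 4.3.3, with an intensity trend, was fitted on log2(value + 1), whose fold changes understate those of low genes. Benjamini-Hochberg adjustment was over all tested genes with a threshold of 0.05. Spearman's rho was tested by exact permutation over cats (Python 3.11.15, scipy 1.17.1). Counting errors, and the limit of 3 counts behind a value of 0, cover counting error only. edgeR 4.0.16 and DESeq2 1.42.0 were run on the recovered whole reads as alternatives. On simulated data with a log2 change of 2 in 200 of 8715 genes, limma found 75.5% between PAK20671 and the other flow cells, 64% between PAM73681 and PAM73696, and 65.5% between congestive HF and ATE. For the traits, data were simulated separately, with the same relative spread for every gene apart from counting error and without differences in depth. With a log2 change of 3 over the range of the trait, the exact test found 0% after adjustment for either trait.

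The factors, the lists and the tests were chosen with earlier results of these data known. All 10 factors are named. Of each list, up to 4 genes with the smallest adjusted p for PAK20671 and genes at 0 reads could be named, and for traits the factors with an unadjusted exact p under 0.05. MRTFA, MRTFB, CCN1, CCN2, MYH7 and FABP4 were not analysed here. Adipocyte markers had at most 14 reads and leukocyte markers at most 492. Coordinates, lengths and sequences were not used, because the available gene table belongs to another assembly.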

Additional observations from a re-analysis of the deposited data

Results flagged for a closer look

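In congestive HF, GATA6 was at 65.6 in the library of cat 11 (136 reads), while the other 5 libraries lay between 101 and 115. The gap was 0.707 of the range of the group, above Dixon's critical value for a group of 6. On flow cell PAK20671, TBX20 was at 1.68 in the library of cat 30, on 2 reads, while the other 3 libraries were at 0. With those at 0, any read at all would have been marked, so this mark carries no information. Of 40 combinations of a factor and a group, these 2 were marked, and chance marks about 1 in 20.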

How the results depend on the processing

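No factor was called under any alternative, and the smallest adjusted p of a factor was 0.0684 (TBX5 between PAK20671 and the others, limma, without cat 30). Over the 9 tested factors, the 5 comparisons and all alternatives, 685 of 747 values remained on their side of 0 and 62 changed sign. Between PAK20671 and the others, the 446 calls became 80 on reads without scaling, which moved the median log2 difference of all genes from 0.03 to 0.41, and 829 with DESeq2. Leaving out each library in turn gave 51 (without cat 11) to 501 (without cat 30), with 129 without cat 31 and 295 without cat 15. Between PAM73681 and PAM73696, the 3 calls became 0 with a pseudocount of 0.5 and with edgeR, 8 without scaling, 38 with DESeq2, and 0 to 16 when a library was left out. Between congestive HF and ATE, the count of 0 became 1 with all genes that had a read, 1 with DESeq2 and 0 to 1 when a library was left out. edgeR also called 0 genes there. For both traits it was 0 under every alternative, which says nothing of stability, since the exact test also found 0% of the changed genes in simulated data. Values that changed sign without scaling were MEF2D (0.18) and NKX2-5 (0.31) between PAK20671 and the others, HAND2 (0.13) between the other flow cells, NKX2-5 (0.17) and SRF (0.085) between outcomes, rho with fibrosis of MEF2A (-0.551), HAND2 (-0.405) and SRF (-0.143), and rho with age of GATA4 (-0.050), GATA6 (-0.234), NKX2-5 (-0.176), MEF2A (-0.494), MEF2C (-0.233) and HAND2 (-0.159). When a library was left out, MEF2D ran from -0.47 to 0.14 between PAK20671 and the others, SRF from -0.40 to 0.017 between the other flow cells, and NKX2-5 from -0.26 to 0.12 between outcomes. The log2 difference of MEF2D between outcomes stayed between 1.05 and 1.39 when a library was left out, and was 1.34 with flow cell as a term. With the library labelled as cat 22 entered as ATE it was 1.01, and the groups then overlapped. No paired analysis was possible because each cat gave 1 library and no cat number occurs in more than 1 group. Depth limits TBX20, MEF2D, TBX5 and SRF most.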
